A study of Mus musculus with 12 samples.

Results

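The genes described here are 41 mouse genes that sense DNA damage or repair it, among 30139 genes or transcripts on the array. They were chosen by name: each probe whose gene name, updated through its accession, is one of the 41 was taken, which gave 62 of 39429 probes. By repair pathway, 10 belong to homologous recombination, 3 to the break-sensing Mre11 complex, 8 to the Fanconi anaemia pathway, 4 to mismatch repair, 6 to base excision and single-strand break repair, and 4 to non-homologous end joining. Nucleotide excision repair has 1 (Rad23b), post-replication repair has 1 (Rad18) and checkpoint kinases have 4.

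The study set adenomatous polyps against normal tissue of the large intestine. Apc polyp tissue came from 4 mice heterozygous for Apc Δ716, an allele that truncates the Wnt pathway inhibitor Apc. Apc normal tissue came from the same 4 mice, numbered 103, 106, 107 and 110, and WT normal tissue from 4 wild-type mice, numbered 102, 104, 105 and 108. All 8 mice were female C57BL/6N aged 14 weeks and fed CE-2 chow, and each of the 12 samples is 1 Cy3-labelled Agilent array. The Apc allele is present in every cell of the heterozygous mice, so polyp and normal tissue of 1 mouse share it, and the sources used here do not give whether a polyp array holds 1 polyp or several.

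Cells meet DNA damage with separate machines. Double-strand breaks are resected and copied from a sister chromatid by homologous recombination, which needs S or G2 phase, or are rejoined directly by end joining in any phase. The Fanconi anaemia proteins undo crosslinks between strands and protect stalled forks, mismatch repair corrects replication errors, and base excision repair removes single damaged bases. The kinases Atm and Atr signal breaks and stalled forks through Chek2 and Chek1. In the intestine, mismatch repair and the base excision glycosylase Mutyh are known for their loss in inherited human colorectal cancer.

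Levels below are log2 of the processed signal of 1 probe per gene minus the 75th percentile of its array, so 0 is the 75th percentile and 1 unit is a doubling. Differences are on the same log2 scale. A gene was called when limma's adjusted p was under 0.05, the p-values being adjusted over all genes tested (Benjamini-Hochberg). Between 64.6% and 73.8% of spots were well above background per array, arrays of a group correlated at r of 0.959 to 0.992 across genes, and slide 1 held all WT arrays. In bulk tissue, fewer cells of a type and less RNA per cell cannot be told apart. Within a group each array is of a separate mouse, while polyp and Apc normal arrays come from the same 4 mice, which the tests reported do not pair.

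In polyps, 29 of the 40 tested repair genes were higher than in Apc normal tissue, none was lower and 11 were not called. At an unadjusted p under 0.05 the count was also 29, against 53.2% of all genes tested. Across all 19661 genes tested, 21.0% were higher and 24.7% were lower, 45.7% in all. The 40 were well above background on all 12 arrays, and the remaining gene, Brca1, was not tested. The median difference over the 40 genes was 0.71, against −0.05 over all genes tested. The called genes were 1.28-fold to 2.98-fold higher, and 12 were at least 2-fold higher, against 9.30% of all genes tested. For 29 of the 40, the same genes as those called, every polyp array lay above every Apc normal array, against 20.9% of all genes tested. The call and this separation come from the same arrays, so the separation adds no further support.

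In order of size, Rad54b, Fanca, Fanci, Rad54l, Exo1, Brca2, Blm, Rad18, Neil3, Trp53bp1, Rad51ap1 and Fancd2 came first and differed by 1.10 to 1.57. Most of these belong to homologous recombination or the Fanconi anaemia pathway, while Exo1, Rad18, Neil3 and Trp53bp1 belong to other pathways. Next came Fancm, Ung, Mre11a, Fancb, Tdg, Parp1, Palb2, Xrcc2 and Atr at 0.70 to 0.89. The smallest called differences were those of Xrcc6, Rad23b, Chek2, Rad50, Xrcc3, Pms2, Xrcc5 and Msh6, at 0.35 to 0.56.

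**Figure D1:**
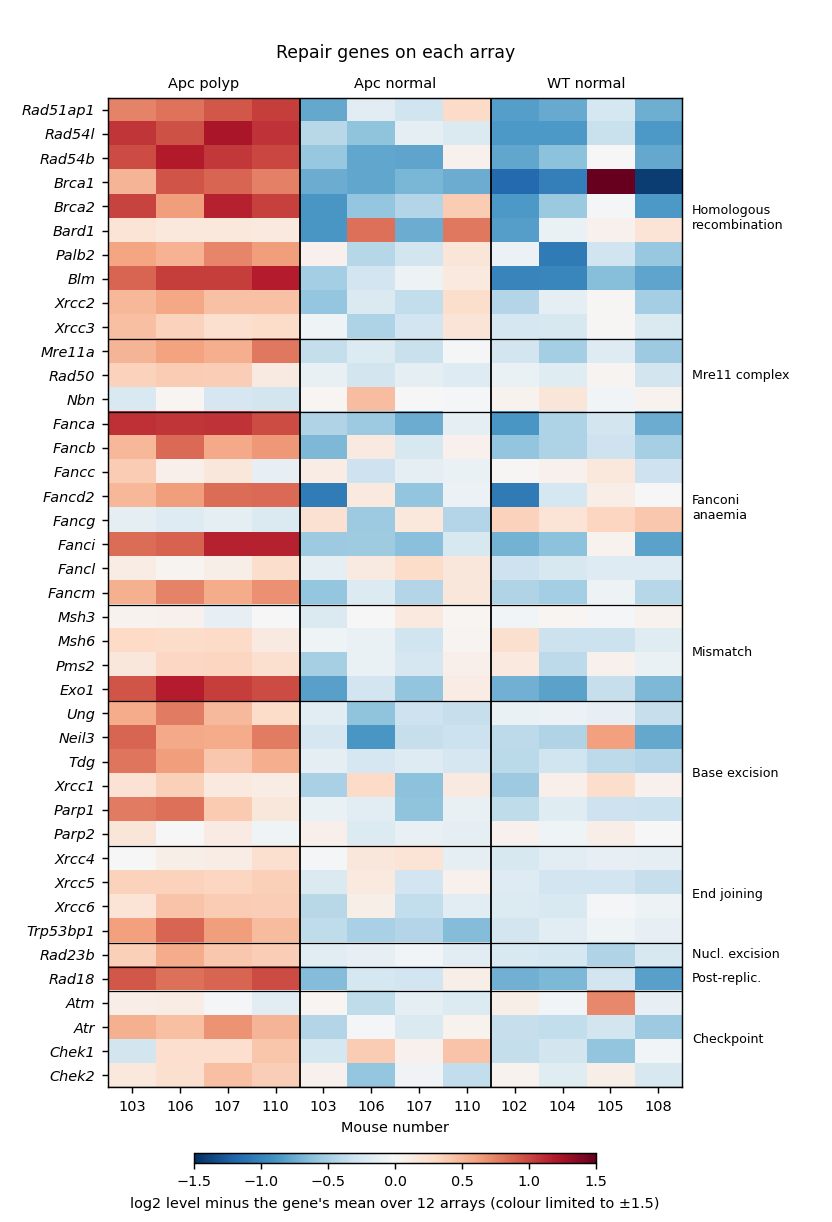
Level of each of the 41 repair genes on each array (rows, grouped by pathway), as the log2 level minus the gene's mean over 12 arrays. Columns are mice, with Apc polyp arrays left, Apc normal in the middle and WT normal right. Most genes are red in the 4 polyp columns and mostly blue in the 8 normal columns, while Fancg and Nbn are palest or blue in polyps.

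**Figure D2:**
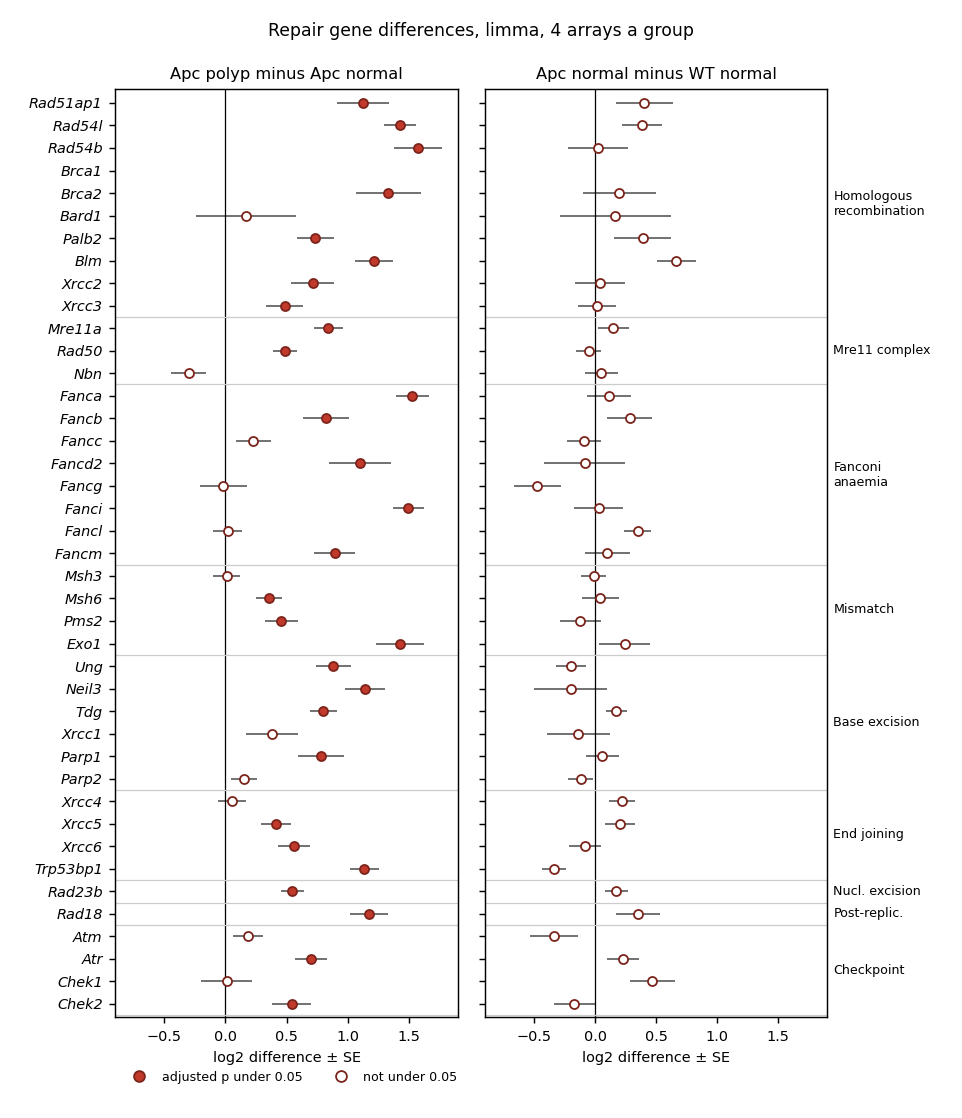
Log2 difference ± SE of each tested repair gene, for Apc polyp minus Apc normal (left panel) and Apc normal minus WT normal (right panel), 4 arrays a group. Filled points have an adjusted p under 0.05. The left panel has 29 filled points, all above 0, and the right panel has none.

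In homologous recombination, 8 of 9 tested genes rose in polyps, with a median difference of 1.12. Rad54l, a motor protein that acts during strand invasion, had levels of −1.60, −1.72, −1.45 and −1.59 in polyps of mice 103, 106, 107 and 110. It had −3.08, −3.27, −2.82 and −2.89 in Apc normal tissue of the same mice, and −3.53, −3.53, −3.00 and −3.53 in WT tissue of mice 102, 104, 105 and 108. The lowest polyp array stood above the highest normal array by over 1 unit, and the difference from Apc normal tissue was 1.43 ± 0.13 (SE, n = 4 each; limma adjusted p = 0.000136).

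Rad54b, the paralog of Rad54l, had −1.68, −1.48, −1.61 and −1.66 in polyps, −3.23, −3.44, −3.45 and −2.60 in Apc normal tissue, and −3.45, −3.28, −2.66 and −3.43 in WT tissue. The polyp arrays were close together, while 1 array in each normal group, Apc normal 110 and WT 105, was higher than its group. Rad54b rose by 1.57 ± 0.19 (limma adjusted p = 0.000473), the largest difference among the 40. A second Rad54b probe was well above background on 4 polyp arrays but on 1 Apc normal array, so it gives no firm size.

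The other risen genes of the pathway were Brca2, a mediator of strand exchange (1.33), the helicase Blm (1.21), Rad51ap1, which stimulates strand pairing (1.12), Palb2, which joins Brca1 to Brca2 (0.73), and the recombination factors Xrcc2 (0.71) and Xrcc3 (0.48). The Xrcc3 call was lost when any of 6 arrays was left out, namely any polyp array or Apc normal 106 or 107, with adjusted p of 0.0524 to 0.0788, and also with median scaling, quantile normalization, normexp correction together with quantile normalization, or no filter on dim probes. Of 23 further recombination genes tested, 17 rose and none fell. Psmc3ip, a cofactor of strand exchange, rose by 1.58 ± 0.12.

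Brca1, the ubiquitin ligase that starts recombination at breaks, was near the detection limit of its 1 probe. It was well above background on 2 of 4 polyp arrays, on no Apc normal array and on 1 WT array. The measured levels were −6.05, −5.63, −5.69 and −5.81 in polyps and −7.30, −7.34, −7.25 and −7.31 in Apc normal tissue. With Apc normal tissue set at the lowest signal measurable on each array, the polyp mean was 1.09-fold higher. That mean takes in polyp arrays not well above background, so the value is no firm lower bound. In WT tissue the level was −3.08 in mouse 105 and −7.99 to −7.59 in the other mice.

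Bard1, the partner that stabilises Brca1, was read differently by its probes. The probe with the brightest mean, which stands for the gene in all counts, lies at chr1:71074902-71074961 and the second at chr1:71074294-71074353 (mm9, minus strand). Their sequences are shown because the Bard1 result turns on which of the pair is read, and neither carries a marked part.
Bard1 probe used: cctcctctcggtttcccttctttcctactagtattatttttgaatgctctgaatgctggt
Bard1 second probe: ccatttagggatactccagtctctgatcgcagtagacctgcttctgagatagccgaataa

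The Bard1 probe used gave −1.60, −1.65, −1.65 and −1.65 in polyps, −2.67, −0.98, −2.54 and −1.01 in Apc normal tissue, and −2.63, −1.90, −1.74 and −1.59 in WT tissue. The Apc normal arrays fell on both sides of the polyps, and the difference was 0.17 ± 0.41 (limma adjusted p = 0.766). The second Bard1 probe gave −0.98, −1.27, −1.52 and −1.37 in polyps, −2.90, −2.83, −3.34 and −2.41 in Apc normal tissue, and −3.51, −2.80, −2.68 and −3.29 in WT tissue. There, all polyp arrays lay above all normal arrays, by 1.59 ± 0.21 over Apc normal tissue (adjusted p = 0.000559, in a fit of every probe). The remaining Bard1 probe was well above background on 3 polyp arrays and on no normal array.

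In the Mre11 complex, which binds broken ends and activates Atm, the nuclease and the tether rose and the remaining subunit did not. Mre11a, the nuclease, had 0.21, 0.31, 0.25 and 0.49 in polyps, −0.66, −0.50, −0.64 and −0.32 in Apc normal tissue, and −0.57, −0.80, −0.49 and −0.84 in WT tissue. All polyps were above all normal arrays, and the difference from Apc normal tissue was 0.84 ± 0.12 (limma adjusted p = 0.000819).

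Rad50, the tether, had 0.41, 0.44, 0.43 and 0.19 in polyps, −0.05, −0.21, −0.09 and −0.14 in Apc normal tissue, and −0.04, −0.12, 0.11 and −0.21 in WT tissue. The polyp of mouse 110 was the lowest polyp but still above all normal arrays, and the difference was 0.49 ± 0.10 (limma adjusted p = 0.00486). A second Rad50 probe gave 0.78 ± 0.42 (adjusted p = 0.164), and with the mean over both probes the Rad50 call was lost (adjusted p = 0.0612).

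Nbn, the subunit that recruits Atm, was named here after its values were seen. It had −1.78, −1.53, −1.81 and −1.84 in polyps, −1.54, −1.09, −1.56 and −1.58 in Apc normal tissue, and −1.50, −1.37, −1.60 and −1.50 in WT tissue. Each polyp was below the normal tissue of its own mouse, as it was for 33.6% of all genes tested, but the difference of −0.30 ± 0.14 did not pass (limma adjusted p = 0.121).

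In the Fanconi anaemia pathway, 5 of 8 genes rose, with a median difference of 0.86. Fanci, a subunit of the clamp that the pathway ubiquitinates, had −1.46, −1.41, −1.15 and −1.15 in polyps, −2.85, −2.84, −2.94 and −2.55 in Apc normal tissue, and −3.01, −2.92, −2.25 and −3.11 in WT tissue. All polyps were above all normal arrays, by 1.50 ± 0.13 over Apc normal tissue (limma adjusted p = 0.000122). A second Fanci probe was well above background on no polyp array, and averaging it in gave 0.26 (adjusted p = 0.406), so the Fanci call rests on 1 probe.

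Fanca, a core-complex subunit, had 0.10, 0.09, 0.09 and −0.01 in polyps, −1.44, −1.53, −1.74 and −1.13 in Apc normal tissue, and −1.86, −1.45, −1.26 and −1.73 in WT tissue. The 4 polyps were close together and above all normal arrays, and the difference from Apc normal tissue was 1.53 ± 0.14 (limma adjusted p = 0.000133). A second Fanca probe was well above background on 0 of 12 arrays, and averaging it in gave 0.56 (adjusted p = 0.0208). Fancd2, the partner of Fanci in the clamp, rose by 1.10, the fork motor Fancm by 0.89 and the core subunit Fancb by 0.82.

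The core-complex genes Fancc, Fancg and Fancl did not pass, at 0.23, −0.02 and 0.02 (limma adjusted p = 0.225, 0.950 and 0.909). Of 12 further genes of the pathway tested, 6 rose and 1 fell. Cenps, listed as Apitd1 on the array, rose by 1.50 ± 0.26, and Ube2t, the enzyme that delivers ubiquitin to the clamp, by 1.35 ± 0.14. The 1 that fell was Cenpx, listed as Stra13, the partner of Cenps on DNA, at −0.84 ± 0.16 (limma adjusted p = 0.00318).

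In mismatch repair, 3 of 4 genes rose, with a median of 0.40. Exo1, the exonuclease that removes the mismatched strand and also resects breaks, had 0.20, 0.44, 0.30 and 0.24 in polyps, −1.55, −1.02, −1.33 and −0.62 in Apc normal tissue, and −1.46, −1.54, −1.08 and −1.40 in WT tissue. Again the polyps were above all normal arrays, and the difference from Apc normal tissue was 1.43 ± 0.20 (limma adjusted p = 0.000778).

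Pms2, an endonuclease that nicks the strand to be corrected, had −1.38, −1.24, −1.23 and −1.31 in polyps, −2.06, −1.65, −1.80 and −1.48 in Apc normal tissue, and −1.40, −1.95, −1.48 and −1.66 in WT tissue. The polyps lay above all Apc normal and all WT arrays by a narrow margin, and the difference from Apc normal tissue was 0.46 ± 0.14 (limma adjusted p = 0.0257). Without polyp 106, 107 or 110 or Apc normal 107, the Pms2 call was lost (adjusted p = 0.0544 to 0.0680), as it was with no filter on dim probes. A second Pms2 probe gave 0.28 ± 0.16 (adjusted p = 0.191).

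Msh6 and Msh3, which recognise small and larger mismatches, differed by 0.35 and 0.01. The Msh6 call (limma adjusted p = 0.0264) was lost with the mouse as a block (adjusted p = 0.0595), and without polyp 103, 106 or 107 or Apc normal 107 (0.0567 to 0.0693), and also with median scaling or no filter on dim probes. The 3 probes of Msh3 gave −0.19, −0.03 and 0.01, none of them called. Of the other mismatch genes 3 of 4 rose, Pms1 by 1.10 ± 0.15.

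In base excision and single-strand break repair, 4 of 6 genes rose, with a median of 0.79. Tdg, a glycosylase that removes thymine from G:T pairs and oxidised methylcytosine, had −1.36, −1.54, −1.76 and −1.62 in polyps, −2.30, −2.41, −2.35 and −2.41 in Apc normal tissue, and −2.57, −2.46, −2.56 and −2.60 in WT tissue. The normal arrays were close together and below all polyps, and the difference was 0.80 ± 0.11 (limma adjusted p = 0.000749). Further Tdg probes gave 1.16 (adjusted p = 0.000258) and 0.19 (adjusted p = 0.537).

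Neil3, a glycosylase known to be expressed in dividing cells, had −1.81, −2.11, −2.12 and −1.90 in polyps, −2.93, −3.55, −3.02 and −3.01 in Apc normal tissue, and −3.08, −3.13, −2.06 and −3.44 in WT tissue. The polyps were above all Apc normal arrays, by 1.14 ± 0.16 (limma adjusted p = 0.000883), while WT mouse 105 lay within the polyp range. Ung, which removes uracil, rose by 0.88 and Parp1, which marks strand breaks with poly(ADP-ribose), by 0.78. The only Ung probe ends in a long run of repeated gt, and whether it also reads other transcripts was not tested.

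Xrcc1, the scaffold of single-strand break repair, and Parp2 were at 0.38 ± 0.21 and 0.16 ± 0.11, and neither passed (limma adjusted p = 0.182 and 0.269). Of 19 further genes 9 rose and none fell. Apex1, the endonuclease that cuts at abasic sites, rose by 1.09 ± 0.19 and the glycosylase Mutyh by 1.05 ± 0.25.

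In non-homologous end joining, 3 of 4 genes rose. Trp53bp1, a chromatin reader that shields broken ends from resection, had 0.18, 0.43, 0.19 and 0.04 in polyps, −0.82, −0.92, −0.88 and −1.09 in Apc normal tissue, and −0.71, −0.60, −0.50 and −0.55 in WT tissue. Here the 3 groups were separate, with Apc normal lowest, and the polyp difference from Apc normal tissue was 1.14 ± 0.12 (limma adjusted p = 0.000234). A second probe gave 0.64 ± 0.13.

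Xrcc6, which encodes the Ku70 subunit of the ring that holds broken ends, had 2.89, 3.12, 3.07 and 3.06 in polyps, 2.28, 2.77, 2.32 and 2.52 in Apc normal tissue, and 2.48, 2.46, 2.66 and 2.61 in WT tissue. It rose by 0.56 ± 0.13 (limma adjusted p = 0.00988), with the polyps above all normal arrays. Xrcc5, the Ku80 subunit, rose by 0.42 ± 0.12 (limma adjusted p = 0.0237), a call lost when any of 6 arrays was left out, namely any polyp array or Apc normal 103 or 107 (adjusted p = 0.0511 to 0.0583), and also with no filter on dim probes.

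Xrcc4, the partner of the end-joining ligase, was at 0.06 ± 0.11 (adjusted p = 0.714). Of 11 further genes 4 rose and none fell. The largest were those of Polq (1.55 ± 0.12), the polymerase of an alternative joining route that uses short homologies, and Mad2l2 (1.03 ± 0.14), a subunit of shieldin and of translesion polymerase zeta.

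Rad23b, which helps Xpc find bulky lesions, had 1.23, 1.42, 1.27 and 1.24 in polyps, 0.71, 0.74, 0.82 and 0.69 in Apc normal tissue, and 0.64, 0.60, 0.41 and 0.62 in WT tissue. It rose by 0.55 ± 0.09 over Apc normal tissue (limma adjusted p = 0.00196), with each group separate from the next. Only 4 of 18 further nucleotide excision genes rose and none fell, with a median of 0.10, a count of 22.2% against 21.0% of all genes tested. Gtf2h2, a TFIIH subunit, rose by 0.62 ± 0.11 and Cetn2 by 0.49 ± 0.11.

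Rad18, the ligase that ubiquitinates PCNA at stalled forks, had −0.45, −0.56, −0.52 and −0.41 in polyps, −2.03, −1.64, −1.68 and −1.29 in Apc normal tissue, and −2.11, −2.06, −1.67 and −2.20 in WT tissue. The polyps were close together and lay above all normal arrays, and the difference was 1.18 ± 0.16 (limma adjusted p = 0.000627). A second Rad18 probe gave 1.42. Of 10 further post-replication and translesion genes 2 rose, near the 21.0% of all genes tested. They were the polymerases Poli (0.50 ± 0.15) and Polh (0.48 ± 0.14), and the median over the 10 was 0.14.

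Of the checkpoint kinases, the ones that rose were Atr and Chek2. Atr, the kinase of stalled forks, had 0.73, 0.65, 0.88 and 0.71 in polyps, −0.24, 0.17, −0.02 and 0.25 in Apc normal tissue, and −0.15, −0.17, −0.08 and −0.34 in WT tissue. Its polyps lay above both normal groups, and it rose by 0.70 ± 0.13 (limma adjusted p = 0.00320).

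Chek2, the effector of Atm, had −2.45, −2.37, −2.16 and −2.25 in polyps, −2.55, −3.19, −2.67 and −2.98 in Apc normal tissue, and −2.55, −2.80, −2.52 and −2.85 in WT tissue. The lowest polyp, that of mouse 103, was only just above the normal tissue of the same mouse, and the difference was 0.54 ± 0.16 (limma adjusted p = 0.0247). The Chek2 call was lost without polyp 106, 107 or 110 or Apc normal 110 (adjusted p = 0.0509 to 0.0653), and also with median scaling, with quantile normalization, with no filter on dim probes and with Apc normal 106 and 110 both left out.

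Atm and Chek1, the effector of Atr, did not pass, at 0.18 ± 0.12 and 0.01 ± 0.21 (limma adjusted p = 0.250 and 0.973), although a second Atm probe gave 0.37 ± 0.10 (adjusted p = 0.0182). Of 19 further checkpoint genes 11 rose and none fell, led by Cdc25c, the phosphatase that opens mitosis (1.52 ± 0.23), and Timeless, of the fork protection complex (1.17 ± 0.30).

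Direct reversal has no gene among the 41. Of its 3 genes 2 fell in polyps: Mgmt, which takes methyl groups off guanine, by 1.21 ± 0.22 (limma adjusted p = 0.00283) and the demethylase Alkbh3 by 0.27 ± 0.09 (limma adjusted p = 0.0374). With Cenpx they were the 3 that fell among 119 further repair genes, of which 56 rose; the median over the 119 was 0.31.

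Each polyp could also be set against the normal tissue of its own mouse. In 31 of the 40 tested genes the polyp was above its own normal tissue in all 4 mice, as it was for 28.5% of all genes tested. The median difference over the 40 genes was 0.79 in mouse 103, 0.75 in mouse 106, 0.81 in mouse 107 and 0.49 in mouse 110. Mouse 110 had the smallest median, and its Apc normal array had the highest mean level of the 41 genes among the 4 Apc normal arrays, −1.35 against −1.66 to −1.53.

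**Figure D3:**
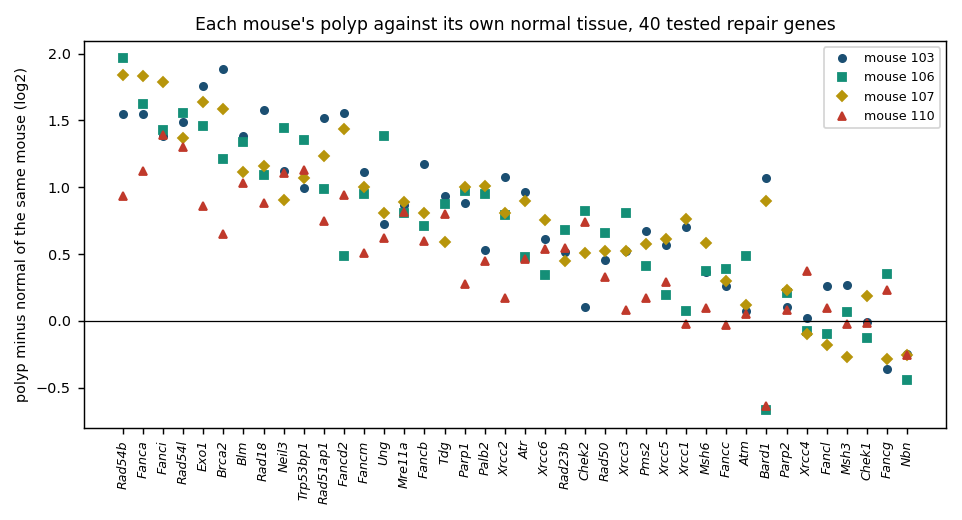
Polyp minus normal tissue of the same mouse (log2, vertical axis) for each of 40 tested repair genes, ordered by the fitted difference; each mouse has its own symbol. In 31 genes all 4 symbols lie above 0, and in Nbn all 4 lie below it. Bard1, as read by the probe used, is above 0 in mice 103 and 107 and below 0 in mice 106 and 110.

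Bard1 was among 3 repair genes, with Fancd2 and Xrcc1, for which the 3 lowest of the 8 normal arrays were those at position 1 of their slides (Apc normal 103 and 107 and WT 102). This held for 7.99% of all genes tested. Xrcc1 had 1.64 and 1.50 in Apc normal tissue of mice 103 and 107 and 1.57 in WT mouse 102, against 2.18 to 2.40 on the other 5 normal arrays and 2.23 to 2.48 in polyps. Apc polyp arrays were all at positions 2 and 4 and Apc normal arrays at positions 1 and 3, so position and tissue cannot be told apart within the Apc mice. WT arrays filled all 4 positions: with positions 2 and 4 only and position as a block, 30 repair genes were higher and 1 lower in polyps than in WT tissue, against 31 and 1 with all arrays.

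Apc normal 106 and 110 also had the highest B cell marker levels, with a mean over 6 markers of −0.26 and 0.02, against −2.00 and −2.55 in mice 103 and 107, −4.11 to −1.96 in polyps and −2.66 to −1.18 in WT tissue. WT mouse 102, low in Bard1 and Xrcc1, had the highest B cell marker mean of the WT arrays. Fancg, which is thought to hold the core complex together, was lowest on Apc normal 106 and 110. It had −3.79 and −3.69 there, against −3.02 and −3.09 in mice 103 and 107, −3.46 to −3.38 in polyps and −3.05 to −2.84 in WT tissue. In polyps 103, 106, 107 and 110 the marker means were −4.07, −4.11, −1.96 and −2.23. Fancg in these polyps was at −3.38, −3.44, −3.38 and −3.46. WT mouse 102 had a marker mean of −1.18 and Fancg at −2.90. Leaving out Apc normal 106 and 110 was chosen after these values were seen, and the Apc normal arrays kept, 103 and 107, are both at position 1. Bard1 then rose by 0.97 (limma adjusted p = 0.00123), Xrcc1 rose by 0.76 (0.00409) and Fancg fell by 0.36 (0.0262). In that setting 30 repair genes were higher and 1 lower. The choice itself favours the differences of these named genes, so their p-values are no test of them. The part of B cells and of array position in these values was not tested.

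**Figure D4:**
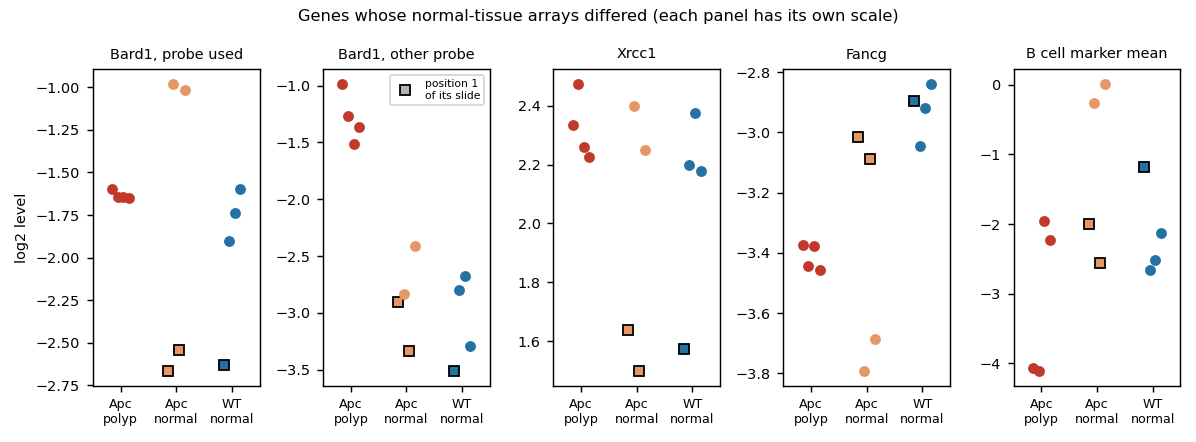
Log2 levels on each array of the Bard1 probe used, the second Bard1 probe, Xrcc1, Fancg and the mean of 6 B cell markers, for Apc polyp, Apc normal and WT normal tissue from left to right in each panel. Squares are arrays at position 1 of their slides. The 3 squares are the lowest normal arrays for the Bard1 probe used and for Xrcc1, but not for Fancg.

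Apc normal tissue was set against WT normal tissue to see what the heterozygous mice carry outside polyps. No repair gene was called in either direction, where 0.202% of 19291 genes tested were higher and 0.0363% lower. The median over the 40 genes was 0.05, against −0.02 over all genes tested. At an unadjusted p under 0.05 there were 6 of 40 (15.0%), against 17.4% of all genes tested. Every Apc normal array lay above every WT array for 4 of the 40, against 4.68% of all genes tested, and below for 1, against 5.71%.

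The 6 were Blm, Chek1, Rad54l and Fancl, higher in Apc normal tissue by 0.66, 0.47, 0.38 and 0.35, and Fancg and Trp53bp1, lower at −0.47 and −0.34. Blm had −2.11, −1.89, −1.67 and −1.45 in Apc normal tissue against −2.58, −2.58, −2.23 and −2.39 in WT tissue, without overlap. Its difference was 0.66 ± 0.16 (limma adjusted p = 0.117). It was called with slide as a random block (limma adjusted p = 0.0286) and with Apc normal 103, its lowest Apc normal array, left out (0.0460). All WT arrays were on 1 slide of their own, so slide and genotype cannot be told apart here. The slide block therefore cannot adjust for slide, and its call adds no evidence for Blm. The correlation within slides, fitted over the genes of the first comparison on all 12 arrays, was −0.0823.

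Polyps against WT tissue share their polyp arrays with the first comparison, so the values are given side by side and not as a repeat. Of 40 tested genes 31 were higher and 1 lower, against 27.6% and 33.0% of 19974 genes tested (60.6% in all), with a median of 0.74. At an unadjusted p under 0.05 there were 34, against 64.9% of all genes tested. For 29 genes every polyp array lay above every WT array, against 25.4% of all genes tested. Of the genes called, 28 were higher in both comparisons. The share over all genes was not counted and the polyp arrays are the same in both, so this count is not read further. Fancg was the 1 that was lower, with −3.38, −3.44, −3.38 and −3.46 in polyps against −2.90, −3.05, −2.92 and −2.84 in WT tissue. Its groups did not overlap, with the polyps below as for 31.5% of all genes tested, and it fell by 0.49 ± 0.08 (limma adjusted p = 0.000821).

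Pms2 was higher in polyps than in Apc normal tissue and just missed the threshold against WT tissue (0.33 ± 0.13, limma adjusted p = 0.0502). Chek1, Fancl and Xrcc4 were at 0.01, 0.02 and 0.06 over Apc normal tissue and were called over WT tissue at 0.48, 0.37 and 0.27 (limma adjusted p = 0.0435, 0.00464 and 0.0189). The test of that difference is the comparison of Apc normal with WT tissue, where their adjusted p was 0.258, 0.190 and 0.333. The Chek1 call over WT tissue was lost without any 1 of 6 arrays (WT 102, 104 and 105 and the polyps of mice 106, 107 and 110; adjusted p = 0.0762 to 0.109). It was also lost with positions 2 and 4 only, with robust eBayes and a trended variance, with a joint fit of the 12 arrays, or without the filter on dim probes, with an adjusted p of up to 0.189. The Xrcc4 call was lost without the polyp of mouse 110 (0.0515), with no filter, and with positions 2 and 4 only (up to 0.0956). The Chek2 call over WT tissue (0.37, adjusted p = 0.0200) was lost without WT 104 or 108 or the polyp of mouse 107 or 110 (0.0510 to 0.0569), and with all 12 arrays in 1 fit. The Msh6 call (0.40, adjusted p = 0.0333) was lost without WT 104, 105 or 108 or the polyp of mouse 103, 106 or 107 (0.0688 to 0.0878), and with median scaling or no filter.

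WT mouse 105 stood apart for these genes: it had the highest of the 4 WT levels in 28 of 41 genes, and a mean level over the 41 of −1.32 against −1.70 to −1.66. Its mean over mitosis genes was also the highest of the WT arrays (−0.27 against −0.94 to −0.63). Without it the median over the repair genes was 0.16 for Apc normal against WT tissue, with 0 called, and 0.77 for polyps against WT tissue, with 29 higher and 1 lower.

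Genes of DNA replication and of mitosis, which mark dividing cells, were set beside the repair genes. In polyps against Apc normal tissue, 26 of 27 replication genes rose and 1 fell, with a median of 0.91, and all 19 tested mitosis genes rose, with a median of 1.56. The mean level of the replication genes was 0.96 to 1.02 in polyps, −0.20 to 0.38 in Apc normal tissue and −0.28 to −0.16 in WT tissue, and that of mitosis genes was 0.55 to 0.76, −1.22 to −0.61 and −0.94 to −0.27. Gins1, of the replicative helicase, rose by 1.85 ± 0.18 and Ndc80, of the kinetochore, by 1.55 ± 0.10 (limma adjusted p = 0.000190 and 4.17e-05). The 1 replication gene that fell was Gins3 (−0.61 ± 0.17), named after its value was seen.

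Replication genes had a median of 0.29 and mitosis genes of −0.24 in Apc normal against WT tissue, with no gene of either list called. At an unadjusted p under 0.05 there were 6 of 27 replication genes and 2 of 19 mitosis genes, against 17.4% of all genes tested. The share of dividing cells was not measured, and its part in the repair gene differences was not tested.

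**Figure D5:**
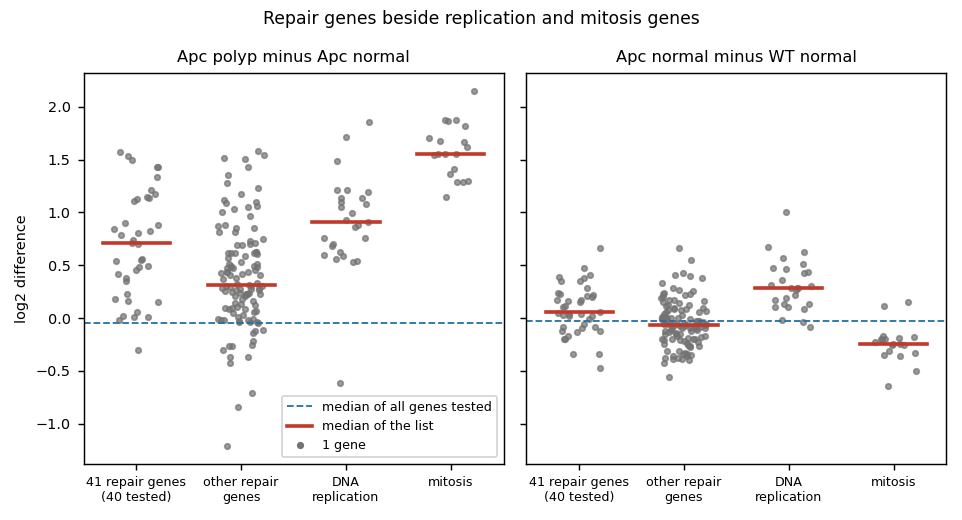
Log2 difference of each tested gene (points) for the repair genes, 119 further repair genes, DNA replication genes and mitosis genes, for Apc polyp minus Apc normal (left) and Apc normal minus WT normal (right). Red bars are list medians and the dashed line is the median of all genes tested. In the left panel the list medians are 0.71, 0.31, 0.91 and 1.56, and in the right panel all lie between −0.24 and 0.29.

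Some markers of cell types also differed between polyps and Apc normal tissue, where 21.0% of all genes tested were higher and 24.7% lower. All 6 smooth muscle genes were lower in polyps, where their summed signal was 19.0 to 41.4 times the array's 75th percentile, against 243 to 325 in Apc normal and 345 to 466 in WT tissue. Smtn had the smallest p among them (−2.44 ± 0.16). All 4 absorptive colonocyte genes were lower, with sums of 18.2 to 31.8, against 224 to 427 and 364 to 408, led by Slc26a3 (−5.31 ± 0.42). Of 7 general epithelial genes 4 were lower, with the smallest p for Krt19 (−0.71 ± 0.10) and with sums of 415 to 480, against 584 to 678 and 570 to 710, so epithelial RNA was present in all groups.

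Neutrophil genes were higher in 3 of 5, S100a9 (6.17), S100a8 (6.13) and Cxcr2 (3.90), with sums of 51.6 to 131 in polyps, against 23.8 to 42.7 and 39.6 to 46.2. The remaining 2, Csf3r and Ly6g, were below 0 and not called, down to −0.92. Against WT tissue 3 of the 5 were higher and 2 lower, down to −1.41. Of 6 B cell genes 2 were lower, Pax5 (−1.98) and Cd22 (−1.04), against 24.7% of all genes tested. The sums over the 6 were 0.611 to 2.52 in polyps, against 1.81 to 12.9 in Apc normal and 1.37 to 4.05 in WT tissue. Among T cell, macrophage and endothelial genes, 1 of 4, 2 of 4 and 1 of 3 were higher, against 21.0% of all genes tested. Lists this short give no firm share. The smallest p in each was that of Lck (0.78), Cd68 (1.01) and Cdh5 (1.08). Of 3 germinal centre genes only Bcl6 was tested, and it was higher by 0.83. The part of these cells in the repair gene differences was not tested.

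Promoters were searched for short motifs because many of these genes moved together. Of the 41 genes 35 have a window in RefSeq's table (GRCm38.p6) of 250 bases before to 50 after the start. E2F factors, which switch on S phase genes, bind motifs searched here as TTTCCCGC, TTTGGCGC, TTTCGCGC and TTTGCCGC on both strands, overlaps allowed. Such a motif was in 7 of 35 windows, against 2.60% of 27025 genes with a window and 11 of 22 replication genes. Among repair genes higher in polyps it was in 4 of 24 (Brca2, Chek2, Msh6 and Xrcc6), and among those tested and not called in 3 of 10 (Bard1, Fancg and Msh3).

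Of the other motifs, CCAAT was in 20 of 35 windows (57.1%, against 41.1% of all), TTTGAA, the core of the CHR element of mitotic genes, in 1 of 35 (2.86%, against 20.2% of all and 66.7% of mitosis genes), and the E-box CACGTG in 4 of 35 (11.4%, against 8.09%). Shares over all genes include genes of other base composition, and a match is no evidence of binding.

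The windows of Xrcc6 and Chek2, which rose, and of Msh3, which did not, are printed because all hold the same kind of motif, in capitals. They lie at chr15:82016119-82016418 (plus strand), chr5:110839733-110840032 (plus strand) and chr13:92354954-92355253 (minus strand), each 300 bases written 5′ to 3′ along the gene.
Xrcc6 promoter: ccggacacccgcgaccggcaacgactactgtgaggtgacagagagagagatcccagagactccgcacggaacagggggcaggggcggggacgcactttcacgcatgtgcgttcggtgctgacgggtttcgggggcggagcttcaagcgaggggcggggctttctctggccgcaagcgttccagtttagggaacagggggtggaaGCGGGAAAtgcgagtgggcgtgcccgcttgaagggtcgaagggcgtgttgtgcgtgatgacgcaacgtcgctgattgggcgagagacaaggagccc
Chek2 promoter: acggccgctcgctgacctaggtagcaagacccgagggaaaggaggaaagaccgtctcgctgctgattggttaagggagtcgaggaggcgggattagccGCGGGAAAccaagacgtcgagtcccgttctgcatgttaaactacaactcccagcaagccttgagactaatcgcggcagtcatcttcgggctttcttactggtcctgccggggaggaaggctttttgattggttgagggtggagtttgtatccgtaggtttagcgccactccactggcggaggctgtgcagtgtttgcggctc
Msh3 promoter: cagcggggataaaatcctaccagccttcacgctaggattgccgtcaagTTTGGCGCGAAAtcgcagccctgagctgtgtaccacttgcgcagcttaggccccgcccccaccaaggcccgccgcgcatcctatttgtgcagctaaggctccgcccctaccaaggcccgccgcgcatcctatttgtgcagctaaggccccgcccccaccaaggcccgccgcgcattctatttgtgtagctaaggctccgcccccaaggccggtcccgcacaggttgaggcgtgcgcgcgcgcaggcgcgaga

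The motif starts at base 205 of the Xrcc6 window and at base 99 of the Chek2 window. In the Msh3 window a motif on each strand starts at bases 49 and 53, and the pair overlap. In polyps against Apc normal tissue Xrcc6 and Chek2 differed by 0.56 and 0.54 and Msh3 by 0.01, so the motif was present both in genes that rose and in a gene that did not pass.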

How the data were processed

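Large-intestine RNA of 12 samples was hybridised to Agilent 1-colour mouse arrays with 60-base probes. Per the labels' protocols, RNA was extracted on silica columns and DNase-treated, and 0.1 ug was amplified and labelled with Cy3. The deposited scanner files hold an intensity per spot, written by Feature Extraction 10.7.3.1 per the file headers, and the processed signal was used. The authors' deposited value table holds a ratio: after division by a constant per row, 99.8% to 99.9% of its values lay within 1% of the processed signal. Its column medians were 1.00088 to 1.00287, and the sources used here do not give how its constants were chosen.

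Outlier spots (1403) and control spots were left out, spots of 1 probe were averaged, and log2 of the intensity minus the array's 75th percentile was taken. No spot was saturated. Of the probes, 27508 were named through their accession, 3544 by symbol, 404 by synonym and 7973 as the file names them. Each gene was read by its probe of highest mean over the 12 arrays. Testing a gene required 1 group of the comparison in which the scanner software marked its probe well above background on 4 of 4 arrays. Each comparison was fitted on its own 8 arrays with limma 3.58.1 in R 4.3.3 (lmFit and eBayes, two-sided, Benjamini-Hochberg over all genes tested). The code was first tested on simulated data. Changes of 0.5 and 1 were recovered there in 2% and 34% of 50 genes each for polyps against Apc normal tissue. For Apc normal against WT tissue the shares were 14% and 52%. Few genes were changed in the simulation, so these rates need not hold for the measured data. A gene not called is not shown to be unchanged.

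The members and gene lists were chosen with earlier results of these data known. Values per array are given for the called genes of smallest p among the 41 in each pathway, up to a pair. To these, Bard1, Brca1, Blm, Fancg, Nbn and Xrcc1 were added after their values were seen. Further repair genes named in a pathway were mostly the called genes of largest absolute difference, up to a pair, so they do not stand for their list. In the replication, mitosis and cell type lists the gene of smallest p was to be named, in some lists with others.

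Polyp and normal tissue carry the same mouse numbers, so they come from the same animals. Deviations from the group means correlated at r = 0.468, 0.178, 0.141 and 0.288 for mice 103, 106, 107 and 110, against −0.344 to 0.198 between different mice. The tests reported had no mouse block. Alternatives were other scalings, normexp correction (offset 50) together with quantile normalization, no filter, the mean over probes, the deposited table, other fits, mouse, slide, and each array left out. Leaving out Apc normal 106 and 110 or restricting the array positions was chosen after seeing the data. The number of arrays limits the precision. Values of some further genes are not reported here.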

Additional observations from a re-analysis of the deposited data

Results flagged for a closer look

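In each group of 4 arrays the gap of the highest or lowest array to its neighbour was divided by the group's range, and the values above Dixon's 95% critical value are given here. There were 13 among 123 groups of 4, where chance gives about 1 in 20, and 5 of the 13 were on WT mouse 105. That array was the highest of its group for Rad54l (0.990; −3.00 against −3.53), Brca1 (0.918), Rad51ap1 (0.850; −0.14 against −0.70 to −0.62) and Xrcc3 (0.849; −2.35 against −2.62 to −2.58), and the lowest for Rad23b (0.858; 0.41 against 0.60 to 0.64). The polyp of mouse 110 was the lowest polyp for Rad50 (0.869; 0.19 against 0.41 to 0.44), Msh6 (0.866; 1.40 against 1.54 to 1.57) and Fanca (0.861; −0.01 against 0.09 to 0.10).

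Bard1 was highest in the polyp of mouse 103 (0.887), although all polyps lay between −1.65 and −1.60. In Apc normal tissue, mouse 106 was the highest for Nbn (0.906; −1.09 against −1.58 to −1.54) and the lowest for Neil3 (0.846; −3.55 against −3.02 to −2.93). Mouse 107 was the lowest for Parp1 (0.898; −1.22 against −0.77 to −0.72). Ung was lowest in WT mouse 108 (0.845; 2.53 against 2.75 to 2.79).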

How the results depend on the processing

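In polyps against Apc normal tissue, 24 to 28 repair genes were higher when each array was left out in turn and 25 to 30 under the 13 other settings, against 29, with 22 of the 29 called under all 21. On slide 2 alone, with 2 mice, 11 were higher, and on slide 3 alone 5, each with fewer arrays. All 29 were above 0 on both slides. That was fixed in advance, because for each of the 29 every polyp array lay above every Apc normal array. With Apc normal 106 and 110 left out, 1 gene, Fancg, was lower. With the mouse as a replicate block 28 were higher, and the 1 call it changed among the 29 was that of Msh6 (adjusted p = 0.0595). In Apc normal against WT tissue, 1 gene, Blm, was higher with slide as a random block, a fit that cannot separate slide from genotype here. Leaving out each array gave 0 to 1 higher. In polyps against WT tissue, 2 genes were lower with quantile normalization (Fancg and Nbn), and leaving out each array gave 1 to 2 lower, Nbn being added without the polyp of mouse 106. The causes were not tested. No direction of a called gene reversed. Over all genes, Apc normal against WT tissue had 39 higher and 7 lower, and 3 and 0 under normexp correction together with quantile normalization. Brca1, near background, was not tested and has no firm bound.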
